A study of Homo sapiens with 16 samples.

Results

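The response of T-47D breast cancer cells to genistein was compared with that of ECC-1 endometrial cancer cells. For each gene, the log2 change with genistein in ECC-1 was subtracted from the log2 change in T-47D, and this difference, called the interaction below, is positive where T-47D responded more upward and negative where ECC-1 did. The comparison rests on 8 of the 16 RNA sequencing libraries of the series, 2 for each of 4 groups. T-47D and ECC-1 cells, each a single established cell line, were kept for 5 days in medium without phenol red and with serum stripped of steroids, and were then exposed for 8 h to 100 nM genistein or to 0.02% DMSO, the solvent. The other 8 libraries hold the same lines after 10 nM estradiol or 100 nM bisphenol A (BPA) and share the DMSO libraries with the genistein groups.

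Genistein is a plant isoflavone, abundant in soy, that binds estrogen receptors and can activate transcription through them. Estrogen receptor alpha, encoded by ESR1, is a transcription factor that binds DNA at estrogen response elements and through other factors, and its target genes differ between tissues. In breast cancer cells the classical targets include GREB1, PGR and CXCL12. The genes linked to estrogen in the endometrium include other secreted and membrane proteins and overlap in part. PGR and GREB1 are in both the breast and the endometrial list used below. At high doses genistein also inhibits tyrosine kinases.

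Levels are scaled RPKM, the read count of a transcript relative to its length in kilobases and to the M reads sequenced, divided by a scale factor for each library. Changes are differences of log2(scaled RPKM + 0.5), so folds of genes near 0 RPKM are understated. Each comes from 1 limma fit over 13827 genes, and a gene counts as changed at a Benjamini-Hochberg adjusted p under 0.05. The fit shares 1 spread per gene over all groups, and a line at or near 0 RPKM adds almost none to it. Intervals of such genes can therefore be too narrow and their p-values too small. The labels do not say that the replicates were separate cultures, so the p-values measure only the spread between these libraries. A permutation of 2 against 2 libraries cannot give an exact p under 0.333 and was not used.

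The 8 libraries held an estimated 18.08 to 29.4 M reads, and replicates differed by an SD of 0.171 to 0.242 on the log2 scale over genes in the 4 groups. The estradiol replicates of each line differed more, with an SD of 0.411 in T-47D and 0.343 in ECC-1, and these libraries enter the shared estimate of the spread. Such an SD does not tell which replicate stood apart. The luminal breast markers other than KRT8 and KRT18 had higher means in T-47D DMSO than in ECC-1 DMSO, and the Mullerian markers other than MSX2, PAX2 and LHX1 had higher means in ECC-1. The 15 luminal breast markers summed to 6441 to 6583 scaled RPKM in the T-47D DMSO libraries and 4039 to 4168 in those of ECC-1, where PIP was listed at 0. Without the keratin genes KRT8, KRT18 and KRT19 these sums were 1943 and 1779 in T-47D DMSO and 171 and 160 in ECC-1 DMSO. The sum of 14 Mullerian markers was 51.1 to 54.4 in T-47D and 350.5 to 369.6 in ECC-1, and in T-47D 51.3 of it was MSX2, which was listed at 0 in ECC-1. SOX17 and HOXA13 were listed at 0 in every T-47D DMSO and genistein library. Summed markers of fibroblasts (9.76 to 21.4), leukocytes (1.44 to 2.16) and endothelium (0.146 to 1.45) were low.

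Genistein raised transcripts in both lines. Of the 13827 genes, 111 changed in T-47D (0.803%), of which 108 rose (0.781%) and 3 fell (0.0217%). In ECC-1 134 changed (0.969%), of which 112 rose (0.81%) and 22 fell (0.159%). The risen genes had 12 members in common, which is 11.1% of those of T-47D and 10.7% of those of ECC-1. No gene passed the test in opposite directions. At an unadjusted p under 0.05 in each line, 19 of the 13827 genes had opposite signs. Whether so few exceed what chance gives was not tested. Without both first estradiol libraries the counts were 266 in T-47D and 415 in ECC-1, with 46 genes changed the same way in both, and the genes that fell then numbered 55 and 127. With array weights 32 of 206 fell in T-47D and 362 of 841 in ECC-1, so the small share of falling genes depended on the fit. The T-47D count fell when any 1 of its DMSO or genistein libraries was left out, least for the first genistein library. That of ECC-1 was 70 and 63 without its first or second DMSO library, and 59 and 69 without its first or second genistein library.

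The difference itself passed the test for 81 genes (0.586%), with 33 positive (0.239%) and 48 negative (0.347%) interactions. At an unadjusted p under 0.05 the count was 649 of 13827, which is not above the share expected if no gene differed. CXCL12 in T-47D and DHRS3 in ECC-1 led the respective directions. Among the 33 positive genes, 31 rose in T-47D and did not pass the test in ECC-1. Among the 48 negative genes, 44 rose in ECC-1 and did not pass in T-47D. The exceptions were TGFA, which rose in both lines, PPARGC1A, which fell in ECC-1, and SEMA3C, CRISPLD1, RHOBTB1 and C2orf54, which passed the test in neither line.

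The count depended on which libraries set the spread. It was 145 without both first estradiol libraries, a setting chosen after seeing the data, 130 with only the 8 DMSO and genistein libraries, and all 81 genes were among those called in each. It fell to 48 without the second T-47D DMSO library, 46 without the second T-47D genistein library, 50 without the first ECC-1 DMSO library, and 50 without either ECC-1 genistein library.

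**Figure D1:**
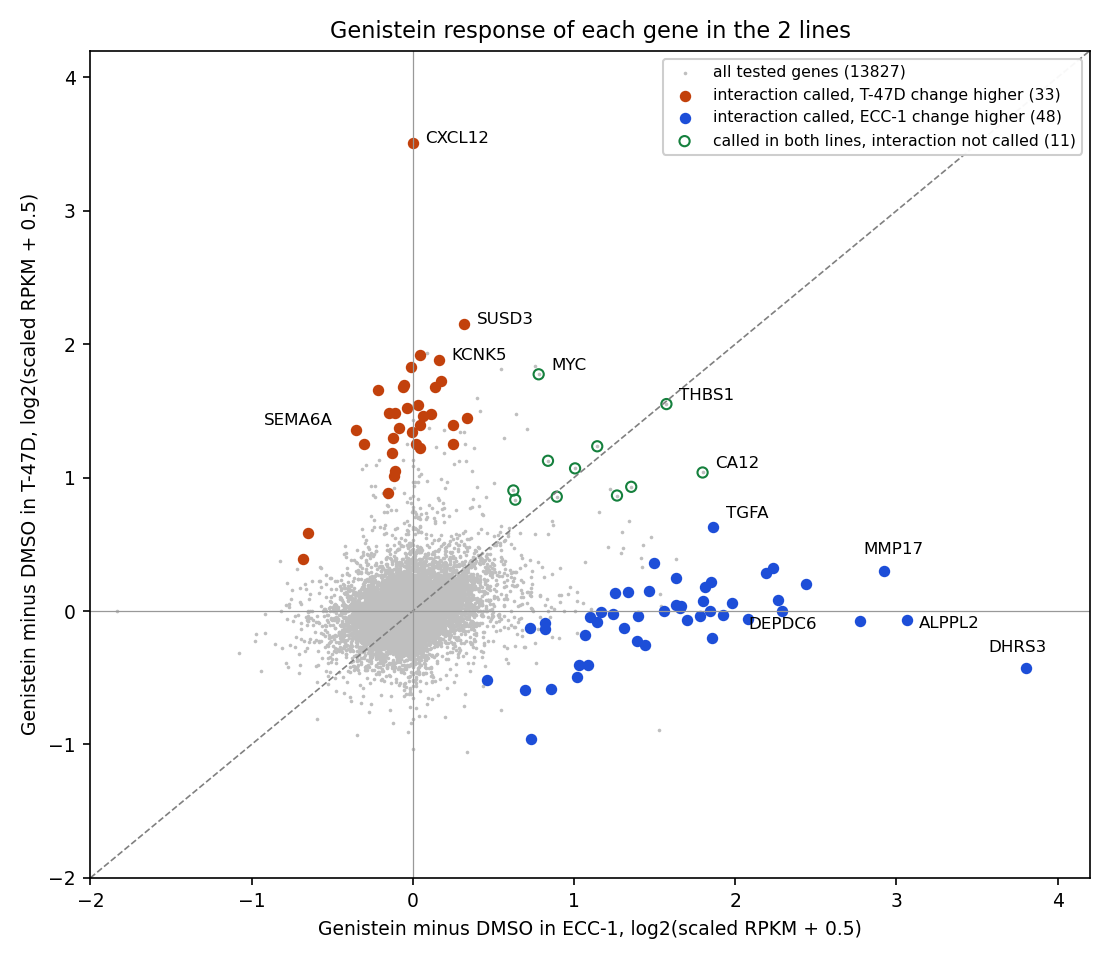
Log2 change with genistein in ECC-1 (horizontal) and T-47D (vertical) for each of the 13827 genes, with the 81 genes of a called interaction filled and 11 genes changed in both lines without one as open circles; the dashed diagonal marks equal change. Most called genes lie along the axes, those of T-47D near 0 on the ECC-1 axis and those of ECC-1 near 0 on the T-47D axis.

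The genes of one line were chosen for not passing the test in the other, and the pseudocount holds the change near 0 where a gene is hardly expressed, so their values in the other line are a description only. The 31 genes rose in T-47D by 0.88 to 3.51 (median 1.46, log2 scale), against -0.35 to 0.34 in ECC-1. The 44 genes rose in ECC-1 by 0.73 to 3.80 (median 1.63), against -0.59 to 0.36 in T-47D.

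Counting a gene as expressed at a mean of at least 1 scaled RPKM in the DMSO or genistein group, 43 of the 81 were expressed in both, 12 of them positive and 31 negative. Of the 31 genes raised in T-47D only, 19 were expressed in T-47D alone and 11 in both lines, and ADRA2A reached 1 in neither. Of the 44 raised in ECC-1 only, 17 were expressed in ECC-1 alone and 27 in both. Across all tested genes, 11307 were expressed in both lines, 1232 in T-47D alone and 1120 in ECC-1 alone.

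Promoters of the genes with the largest interaction in each direction are shown because they are where a receptor site close to the start would lie. The 250 bases before the gene start are from RefSeq on GRCh38.p14, another build than the hg19 of the deposited values, and are printed 5′ to 3′ on the gene's strand. Capitals mark GGTCA or its reverse complement TGACC, a single arm of the palindromic estrogen response element. The full element was searched as GGTCA, any 3 bases and TGACC, and each of its matches also counts as arms. The windows are chr10:44385098-44385347 (minus strand) for CXCL12, chr9:135075255-135075504 (plus) for OLFM1, chr1:12618211-12618460 (minus) for DHRS3 and chr2:232406594-232406843 (plus) for ALPPL2, which RefSeq names ALPG.
CXCL12: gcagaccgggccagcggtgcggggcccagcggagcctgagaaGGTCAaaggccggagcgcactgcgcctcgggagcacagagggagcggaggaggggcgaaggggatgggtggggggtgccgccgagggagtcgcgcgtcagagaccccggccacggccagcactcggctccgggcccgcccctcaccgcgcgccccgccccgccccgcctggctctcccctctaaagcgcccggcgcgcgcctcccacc
OLFM1: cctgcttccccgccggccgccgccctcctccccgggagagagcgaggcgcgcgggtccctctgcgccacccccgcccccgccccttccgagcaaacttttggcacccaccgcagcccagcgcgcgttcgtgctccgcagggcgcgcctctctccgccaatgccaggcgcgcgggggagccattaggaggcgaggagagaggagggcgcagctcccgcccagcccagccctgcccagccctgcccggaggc
DHRS3: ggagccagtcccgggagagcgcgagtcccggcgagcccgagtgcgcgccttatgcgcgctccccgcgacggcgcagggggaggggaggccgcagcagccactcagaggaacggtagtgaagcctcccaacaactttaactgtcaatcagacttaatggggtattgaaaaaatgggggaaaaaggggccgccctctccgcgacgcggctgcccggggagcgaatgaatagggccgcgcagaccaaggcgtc
ALPPL2: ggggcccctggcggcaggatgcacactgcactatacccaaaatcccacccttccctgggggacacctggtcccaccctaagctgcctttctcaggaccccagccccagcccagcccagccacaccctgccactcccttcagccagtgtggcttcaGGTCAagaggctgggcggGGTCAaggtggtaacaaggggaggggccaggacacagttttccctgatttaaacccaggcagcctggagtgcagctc

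CXCL12 held 1 arm and ALPPL2 held 2, while OLFM1 and DHRS3 held none, and the full element was in none of the 4. Among called genes with a promoter in the table, the full element was in 0 of 24 positive and 0 of 33 negative ones. It was in 1 of 10775 tested genes with a promoter (0.0093%) and 12 of all 27305 promoters (0.0439%). An element this rare would hardly be found in sets of this size, so its absence says nothing about these genes. The arm was found on either strand in 6 of 24 positive (25.0%) and 7 of 33 negative genes (21.2%), against 29.9% of 10775 tested genes with a promoter and 33.1% of all promoters. A match describes letters in this window and is not a bound site.

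CXCL12 had the largest positive interaction. CXCL12, the chemokine that binds CXCR4, stood at 3.85 and 2.26 scaled RPKM in the T-47D DMSO libraries and 37.4 and 40.8 with genistein, and was listed at 0 in all 4 ECC-1 libraries. Both genistein libraries of T-47D lay far above both DMSO libraries, and ECC-1 showed no transcript to compare. The interaction was therefore the T-47D change itself, 3.51 (95% interval 2.85 to 4.18, limma adjusted p = 6.57e-05).

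OLFM1, the gene of a secreted olfactomedin glycoprotein, stood at 8.40 and 6.34 in T-47D DMSO and 30.0 and 28.1 with genistein, against at most 0.0166 in any ECC-1 library. It was raised in both treated T-47D libraries with no overlap, and was near 0 throughout ECC-1. Its interaction was 1.88 (1.24 to 2.51, limma adjusted p = 0.00515).

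SEMA6A, a transmembrane semaphorin, stood at 2.84 and 2.88 in T-47D DMSO and 7.93 and 8.34 with genistein, and at 0.523 and 0.383 in ECC-1 DMSO and 0.264 and 0.224 with genistein. The libraries separated in both lines, upward in T-47D and downward at a low level in ECC-1. The ECC-1 change of -0.35 did not pass the test (limma adjusted p = 0.483), and the interaction was 1.71 (1.29 to 2.14, adjusted p = 0.000405).

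SUSD3, the gene of a sushi-domain membrane protein, stood at 3.87 and 3.11 in T-47D DMSO and 16.7 and 17.5 with genistein, and at 0.274 and 0.245 in ECC-1 DMSO and 0.350 and 0.557 with genistein. Treated libraries were higher in both lines, with the ECC-1 change (0.32) not past the test. Its interaction of 1.83 (1.02 to 2.64, limma adjusted p = 0.0388) lost its call when any 1 of the 8 libraries was left out (limma adjusted p from 0.0787 to 0.241).

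NPY1R, a neuropeptide Y receptor, stood at 1.82 and 1.29 in T-47D DMSO and 4.75 and 7.32 with genistein, and at 0.782 and 0.686 in ECC-1 DMSO and 0.608 and 0.518 with genistein. It rose in T-47D without overlap, and its ECC-1 level was lower in both treated libraries by an amount that did not pass the test. The interaction was 1.87 (1.21 to 2.52, limma adjusted p = 0.00669), and it was no longer called when the second T-47D DMSO library was omitted (limma adjusted p = 0.0545).

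KCNH1, a voltage-gated potassium channel gene, stood at 1.39 and 1.44 in T-47D DMSO and 5.21 and 7.60 with genistein, and at 0.00588 or 0 in the ECC-1 libraries. It separated fully in T-47D and was practically silent in ECC-1, with an interaction of 1.84 (1.24 to 2.44, limma adjusted p = 0.00389). KCNK5, a background potassium channel gene, showed the opposite order of baselines, at 0.136 and 0.216 in T-47D DMSO and 5.21 and 6.15 in ECC-1 DMSO. With genistein it stood at 1.51 and 2.58 in T-47D and 6.37 and 6.42 in ECC-1. The gene that was already abundant in ECC-1 thus rose in T-47D, where it remained lower, with an interaction of 1.72 (1.19 to 2.26, limma adjusted p = 0.00259).

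FGD3, which encodes a guanine nucleotide exchange factor, stood at 2.94 and 2.41 in T-47D DMSO and 9.0 and 10.5 with genistein, and at 2.23 and 2.51 in ECC-1 DMSO and 2.04 and 2.49 with genistein. The lines started at similar levels and only the T-47D libraries separated. The interaction was 1.75 (1.10 to 2.40, limma adjusted p = 0.0112). It lost its call without the second DMSO (limma adjusted p = 0.0802) or second genistein library of T-47D (0.0789), or the second DMSO (0.0709) or first genistein library of ECC-1 (0.0803).

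FMN1, a formin that nucleates actin filaments, stood at 4.49 and 4.0 in T-47D DMSO and 13.6 and 15.8 with genistein, and at 6.93 and 4.38 in ECC-1 DMSO and 5.25 and 5.29 with genistein. Treated libraries of ECC-1 lay between the controls. The interaction was 1.74 (1.14 to 2.35, limma adjusted p = 0.00636). KRT13, an epithelial keratin, stood at 0.580 and 0.681 in T-47D DMSO and 2.58 and 2.74 with genistein, and at 1.10 and 0.936 in ECC-1 DMSO and 0.785 and 1.03 with genistein. ECC-1 libraries overlapped, and the interaction was 1.59 (1.13 to 2.05, limma adjusted p = 0.00149).

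**Figure D2:**
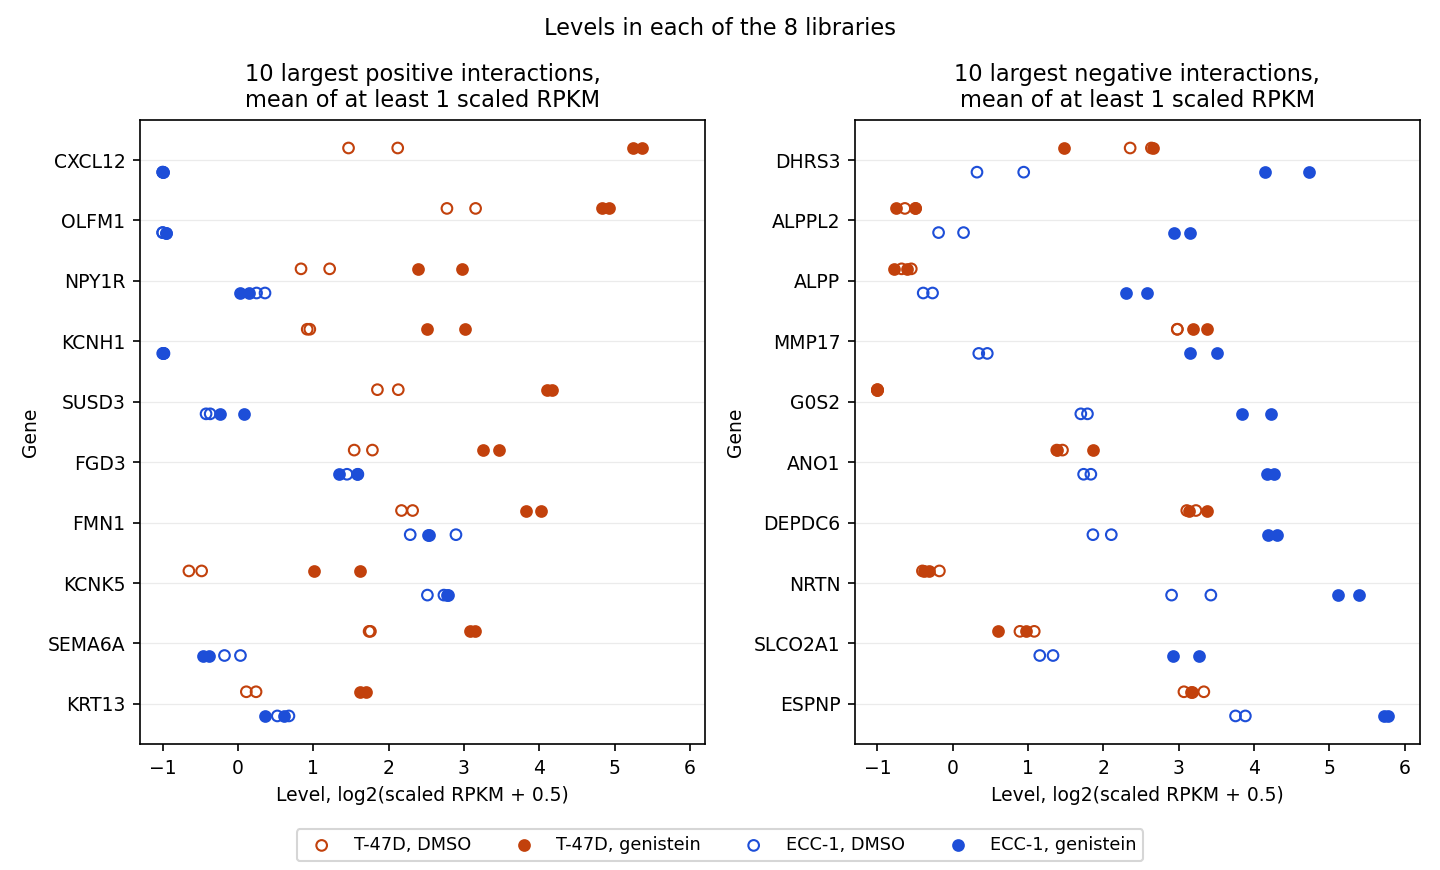
Level of the 10 genes with the largest positive (left) and 10 with the largest negative (right) called interactions, where a gene averaged 1 scaled RPKM or more, in each of the 8 libraries, as log2(scaled RPKM + 0.5); open points are DMSO and filled points genistein, 1 point per library. The filled T-47D points lie to the right of the open ones on the left panel, as the filled ECC-1 points do on the right panel.

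DHRS3 had the largest negative interaction. DHRS3, which reduces retinaldehyde to retinol, stood at 0.75 and 1.42 in ECC-1 DMSO and 17.2 and 26 with genistein, and at 5.72 and 4.62 in T-47D DMSO and 5.8 and 2.29 with genistein. ECC-1 passed from below the T-47D level to above it, while the T-47D libraries overlapped. The ECC-1 change was 3.80 and the interaction -4.23 (95% interval -5.26 to -3.21, limma adjusted p = 0.000405).

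ALPPL2, a placental-like alkaline phosphatase, stood at 0.378 and 0.604 in ECC-1 DMSO and 8.34 and 7.17 with genistein, and at 0.0929 to 0.211 in the 4 T-47D libraries. ECC-1 separated and T-47D stayed near 0, with an interaction of -3.13 (-3.80 to -2.46, limma adjusted p = 0.000193). Its near-identical neighbour ALPP, the placental alkaline phosphatase gene, stood at 0.262 and 0.330 in ECC-1 DMSO and 5.50 and 4.42 with genistein, with an interaction of -2.85. Reads can be split between them, so the values of either gene are uncertain.

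MMP17, a membrane-anchored matrix metalloproteinase, stood at 0.874 and 0.770 in ECC-1 DMSO and 10.8 and 8.35 with genistein, and at 7.4 and 7.39 in T-47D DMSO and 9.91 and 8.6 with genistein. The treated ECC-1 libraries reached the level that T-47D held without treatment. The T-47D change of 0.30 (-0.06 to 0.66) did not pass the test, and the interaction was -2.62 (-3.13 to -2.11, limma adjusted p = 6.57e-05).

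G0S2, which inhibits the triglyceride lipase of fat droplets, stood at 2.75 and 2.95 in ECC-1 DMSO and 13.8 and 18.2 with genistein, and was listed at 0 in all 4 T-47D libraries. ECC-1 libraries did not overlap. Its interaction of -2.29 (-3.15 to -1.43, limma adjusted p = 0.0116) kept its call without the first genistein library of T-47D (limma adjusted p = 0.0386) or of ECC-1 (0.0284), and lost it without any of the other 6 libraries (0.0511 to 0.0787).

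ANO1, a calcium-activated chloride channel gene, stood at 2.83 and 3.06 in ECC-1 DMSO and 18.8 and 17.6 with genistein, and at 2.24 and 2.10 in T-47D DMSO and 3.13 and 2.10 with genistein. The lines were close in DMSO and far apart with genistein. The interaction was -2.24 (-2.78 to -1.69, limma adjusted p = 0.000405).

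DEPDC6, also named DEPTOR and an inhibitor of the mTOR kinase, stood at 3.80 and 3.13 in ECC-1 DMSO and 17.7 and 19.3 with genistein, and at 8.88 and 8.12 in T-47D DMSO and 9.86 and 8.27 with genistein. The ECC-1 level crossed that of T-47D, whose libraries overlapped. The interaction was -2.18 (-2.60 to -1.76, limma adjusted p = 6.57e-05).

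SLCO2A1, a prostaglandin transporter gene, stood at 1.73 and 2.02 in ECC-1 DMSO and 9.17 and 7.09 with genistein, and at 1.36 and 1.62 in T-47D DMSO and 1.01 and 1.47 with genistein. ECC-1 separated and T-47D overlapped, with an interaction of -2.06 (-2.63 to -1.49, limma adjusted p = 0.00119). NRTN, the gene of the neurotrophic factor neurturin, stood at 10.3 and 6.99 in ECC-1 DMSO and 41.4 and 34.0 with genistein, against 0.256 to 0.384 in the T-47D libraries. Its interaction was -2.14 (-2.67 to -1.61, limma adjusted p = 0.000405).

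ESPNP, a pseudogene related to espin, which bundles actin, stood at 13.0 and 14.3 in ECC-1 DMSO and 54.2 and 52.2 with genistein, and at 7.89 and 9.58 in T-47D DMSO and 8.46 and 8.53 with genistein. Treated T-47D libraries lay between the controls. The interaction was -1.96 (-2.39 to -1.53, limma adjusted p = 0.000193). The parent gene ESPN, with an interaction of -1.82, shares sequence with it, so reads of the pair cannot be assigned with certainty.

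TGFA was the only called gene that rose in both lines. TGFA, which activates the receptor EGFR, stood at 35.1 and 34.4 in ECC-1 DMSO and 128.8 and 126.7 with genistein, and at 3.03 and 2.99 in T-47D DMSO and 4.76 and 5.13 with genistein. No treated library overlapped a control in either line. It rose by 1.86 in ECC-1 and 0.63 in T-47D (limma adjusted p = 0.0181), with an interaction of -1.23 (-1.60 to -0.86, adjusted p = 0.00201).

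In other called genes the estimates of the lines had opposite signs, though no gene passed the test in opposite directions. PPARGC1A, the coactivator PGC-1 alpha of mitochondrial gene expression, stood at 1.66 and 1.52 in ECC-1 DMSO and 0.721 and 0.895 with genistein, and at 0.568 and 0.713 in T-47D DMSO and 0.902 and 1.08 with genistein. It fell in ECC-1 (-0.68, limma adjusted p = 0.0492), and its T-47D change of 0.39 did not pass. The levels of the lines came closer with genistein. The interaction of 1.07 (0.61 to 1.53, adjusted p = 0.0332) lost its call without any 1 of the 8 libraries (limma adjusted p from 0.0512 to 0.224).

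SEMA3C, a secreted semaphorin picked after its values were seen, stood at 54.7 and 50.1 in T-47D DMSO and 78.3 and 79.2 with genistein, and at 62.8 and 57.1 in ECC-1 DMSO and 36.9 and 39.1 with genistein. The lines began at close levels, and the treated libraries lay above both controls in T-47D and below both in ECC-1. Neither the T-47D change of 0.58 nor the ECC-1 change of -0.65 passed the test, while their difference of 1.24 did (0.75 to 1.72, limma adjusted p = 0.0169).

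C2orf54, RHOBTB1 and CRISPLD1, picked in the same way, had the opposite orientation. C2orf54 stood at 3.88 and 2.76 in T-47D DMSO and 1.69 and 1.22 with genistein, and at 5.21 and 6.38 in ECC-1 DMSO and 10.2 and 9.66 with genistein. Its interaction was -1.69 (-2.34 to -1.04, limma adjusted p = 0.0143). RHOBTB1, an atypical GTPase gene, had an interaction of -1.29, and CRISPLD1, the gene of a secreted cysteine-rich protein, one of -0.98.

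The 22 positive called genes outside the naming rule, SEMA3C among them, had interactions of 1.00 to 1.63 (median 1.35). The 37 negative ones, among them C2orf54, RHOBTB1 and CRISPLD1, had interactions of -1.92 to -0.86 (median -1.44). The treated libraries did not overlap the controls in T-47D for any of the 33 positive genes or in ECC-1 for any of the 48 negative genes. That was so for 36.4% of all genes in T-47D and 51.1% in ECC-1 in either direction. The called genes were picked by a test on these same values, so their separation is a description and no further evidence.

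**Figure D3:**
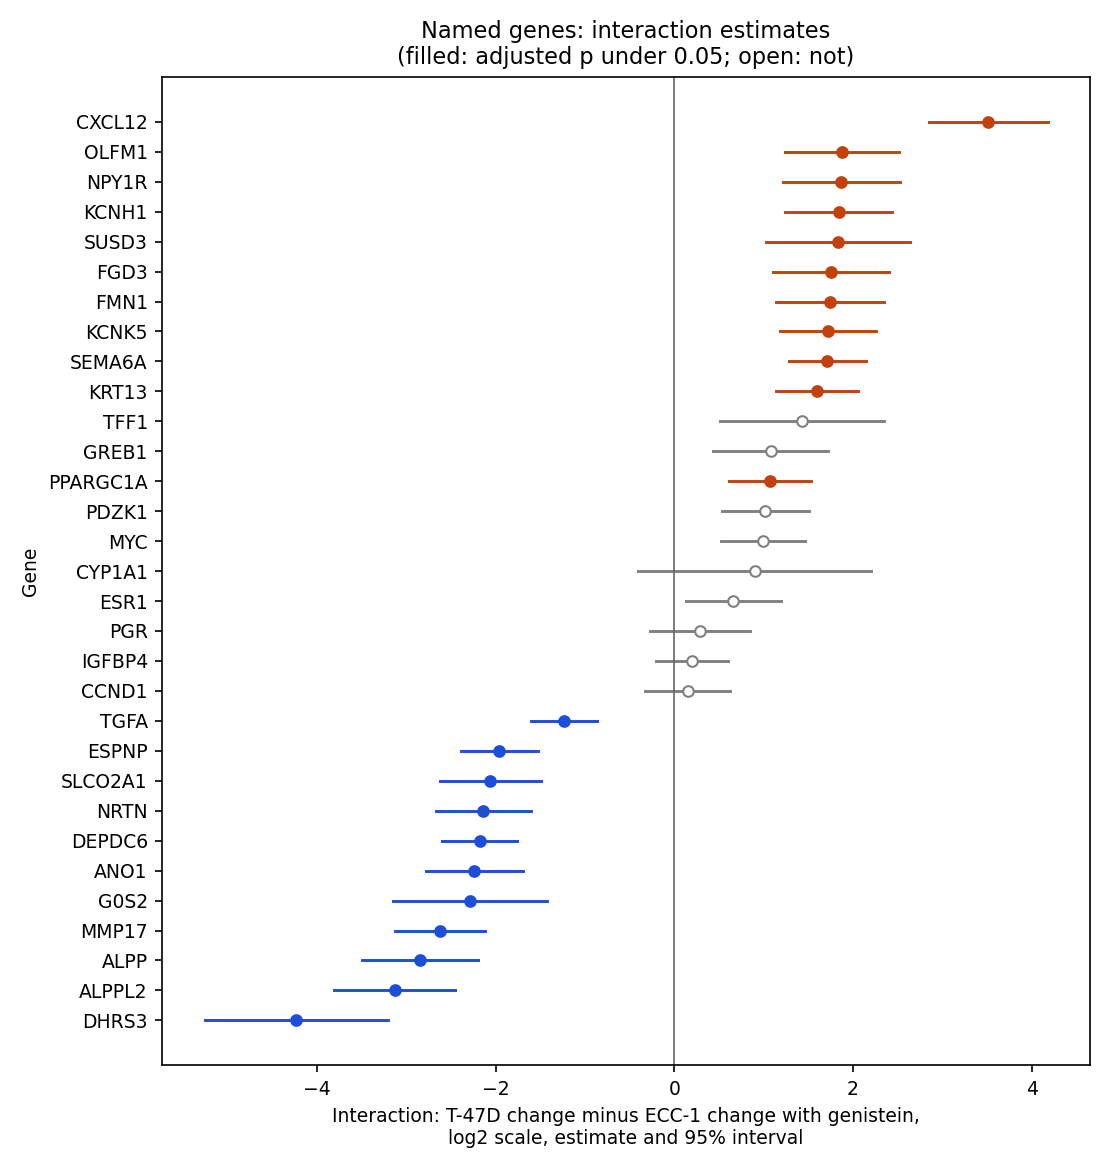
Interaction estimate with its 95% interval for the 10 largest called interactions in each direction where a gene averaged 1 scaled RPKM or more, TGFA, PPARGC1A and 9 further panel genes; filled points passed the test. CXCL12 (3.51) and DHRS3 (-4.23) lie farthest from 0, and the panel genes other than CXCL12 are open.

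A panel of 10 genes often followed in estrogen studies was read in the same way. CXCL12 was the only member with a called interaction, a positive one (0.239% of all genes). In T-47D 7 members rose (0.781% of all genes) and in ECC-1 3 (0.81%). The panel was chosen with earlier results of these data known, so these counts are a description and no independent evidence. MYC, a growth-promoting transcription factor gene, stood at 3.07 and 2.95 in T-47D DMSO and 11.5 and 11.5 with genistein, and at 19.0 and 22.4 in ECC-1 DMSO and 37.2 and 34.5 with genistein. It rose in both lines without overlap, and the interaction of 0.99 (0.52 to 1.47) missed the threshold (limma adjusted p = 0.0688). It was called with only the 8 DMSO and genistein libraries and without both first estradiol libraries.

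GREB1, an estrogen-induced cofactor of the receptor, stood at 11.2 and 12.8 in T-47D DMSO and 37.8 and 51.1 with genistein, and at 1.99 and 1.43 in ECC-1 DMSO and 3.15 and 3.28 with genistein. Treated libraries were higher in both lines, and the ECC-1 change of 0.76 did not pass the test. The interaction was 1.08 (0.44 to 1.72, limma adjusted p = 0.228). PDZK1, a scaffold protein gene with a related pseudogene, had an interaction of 1.02 (0.54 to 1.5, limma adjusted p = 0.0676).

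TFF1, a secreted trefoil peptide, was scarce at 0.392 and 0 in T-47D DMSO and 2.00 and 0.800 with genistein, and was listed at 0 in all 4 ECC-1 libraries. Its interaction of 1.43 did not pass (limma adjusted p = 0.305). ESR1 itself stood at 28.1 and 34.7 in T-47D DMSO and 36.5 and 44.9 with genistein, and at 23.7 and 19.5 in ECC-1 DMSO and 17.4 and 17.6 with genistein. Treated libraries were higher in T-47D and lower in ECC-1, with neither change past the test and an interaction of 0.66 (0.13 to 1.19, limma adjusted p = 0.664).

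CCND1, the cyclin D1 gene, had an interaction of 0.15 (-0.33 to 0.63), and IGFBP4, a binding protein of insulin-like growth factors, one of 0.20 (-0.21 to 0.60). CYP1A1, a target of the aryl hydrocarbon receptor, varied widely, at 4.91 and 6.24 in T-47D DMSO, 7.06 and 4.18 with genistein, 1.63 and 4.90 in ECC-1 DMSO and 0.841 and 1.89 with genistein. The libraries overlapped in both lines, and the interval of its interaction ran from -0.40 to 2.20.

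The members of gene lists are described by counts. The lists were drawn up with earlier results of these data known, so their counts are a description and no independent evidence of direction. Of 32 tested genes known to rise with estrogen in breast cancer cells, 19 rose in T-47D (0.781% of all genes) and 5 in ECC-1 (0.81%), and 6 had a positive called interaction (0.239%) and none a negative one (0.347%), while 26 had none. The 6 were CXCL12, OLFM1, KRT13, SUSD3, HSPB8, a small heat shock protein gene, and TPBG, the gene of the trophoblast glycoprotein. The list's median interaction was 0.60, against 0.02 over all genes.

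Of 13 tested genes linked to estrogen in the endometrium, 9 rose in ECC-1 (0.81% of all genes) and 4 in T-47D (0.781%), and 7 had a negative called interaction (0.347%) and none a positive one (0.239%). They were DHRS3, ALPPL2, ALPP, G0S2, TGFA, MUC5B and SLC6A6. MUC5B, a gel-forming mucin, stood at 0.832 and 0.738 in ECC-1 DMSO and 5.37 and 5.70 with genistein, against 0.118 to 0.355 in T-47D, with an interaction of -1.91 (limma adjusted p = 0.000405). SLC6A6, the taurine transporter gene, had one of -1.39. The list's median was -1.23.

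No interaction was called among genes of ribosome biogenesis, of the G1/S transition or of the immediate early response, which does not show that the lines responded alike. None of 30 ribosome biogenesis genes changed in either line or passed the interaction test, and their median change was 0.28 in T-47D and 0.32 in ECC-1, against -0.0037 and -0.0265 over all genes. None of 29 G1/S cell cycle genes passed any of the 3 tests, with medians of 0.04 in T-47D and -0.03 in ECC-1. Of 11 immediate early genes none had a called interaction, and EGR1, a zinc finger factor gene, rose in ECC-1, from 5.99 and 3.81 to 15.0 and 13.0. EGR1 stood at 0.241 to 0.481 in T-47D. The lowest interaction p belonged in the ribosome list to GAR1, a small nucleolar ribonucleoprotein gene (-0.50, 95% interval -0.89 to -0.11), and in the immediate early list to FOSL1, a partner of JUN proteins (-0.72, -1.19 to -0.25).

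Among 11 ligands and receptors of the epidermal growth factor family, TGFA alone had a called interaction. None of 7 steroid receptor genes did, PGR being the one that rose, in both lines. Of 17 receptor cofactors, PPARGC1A had the only called interaction, and its relative PPARGC1B rose in ECC-1 from 1.07 and 0.972 to 2.28 and 2.24. That rise of 0.86 differed in sign from the fall of PPARGC1A, and the PPARGC1B interaction of -0.58 did not pass (limma adjusted p = 0.915).

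Of 12 genes repressed by estrogen in breast cells none had a called interaction or changed in T-47D, and BMF, a pro-apoptotic gene, fell in ECC-1 by 1.08. BMF stood at 1.64 and 1.70 in ECC-1 DMSO and 0.463 and 0.590 with genistein. None of 8 targets and parts of the aryl hydrocarbon receptor pathway, and none of 6 phase II conjugation genes, passed any of the 3 tests.

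**Figure D4:**
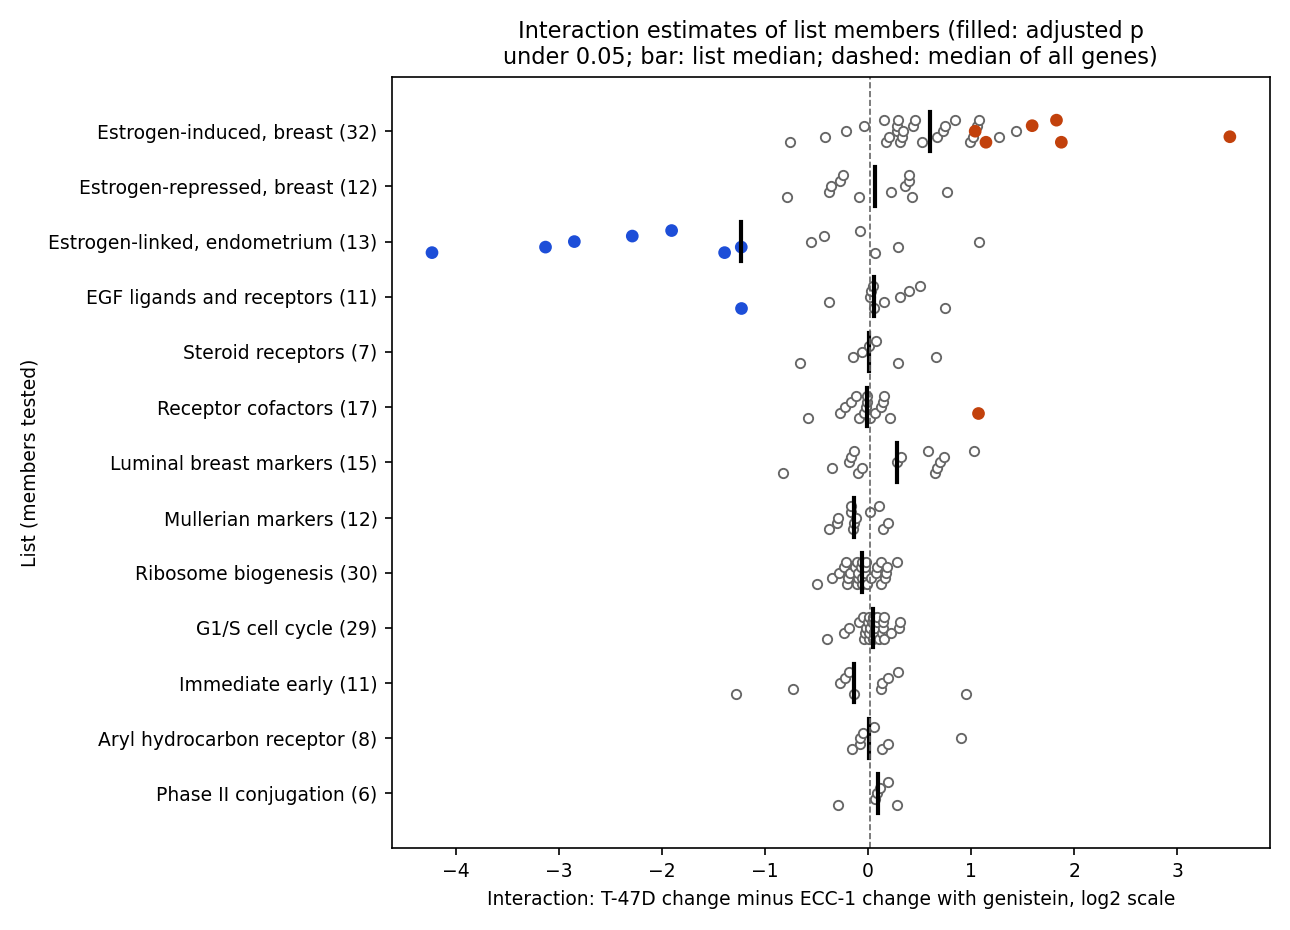
Interaction estimate of each tested member of 13 gene lists, with the number tested in brackets; filled points passed the test, black bars are list medians and the dashed line is the median of all genes. Called members lie right of 0 for breast estrogen-induced genes and left of 0 for endometrial ones.

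Line markers moved as follows beside these results, and their part in them was not tested. The luminal sum went from 6441 to 6583 in T-47D DMSO to 8041 to 8572 with genistein, and from 4039 to 4168 to 3277 to 3481 in ECC-1. Most of the sum is the keratin genes KRT8, KRT18 and KRT19, whose sum was 4640 to 4663 and 5836 to 6624 in T-47D and 3869 to 4008 and 3120 to 3323 in ECC-1. Of the 15 luminal markers none had a called interaction, and AGR3 alone changed, rising by 0.87 in T-47D. None of 12 tested Mullerian markers passed any of the 3 tests.

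The 12 shared genes rose in both lines, with the larger change in T-47D for 6 of them, and they make up 0.0868% of all genes. Apart from TGFA none had a called interaction, which does not show that the changes were equal. THBS1, the gene of the matrix glycoprotein thrombospondin, stood at 32.4 and 35.7 in T-47D DMSO and 91.0 and 111.5 with genistein, and at 15.1 and 26 in ECC-1 DMSO and 59.3 and 60.9 with genistein. It separated in both lines by like amounts, 1.55 and 1.57, with an interval of the difference from -0.80 to 0.76.

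KCNF1, a modulatory potassium channel subunit gene, stood at 1.75 and 1.45 in T-47D DMSO and 4.17 and 4.69 with genistein, and at 1.29 and 2.02 in ECC-1 DMSO and 4.17 and 4.22 with genistein. The lines had like levels before and after, with an interaction interval from -0.56 to 0.74. CA12, a membrane carbonic anhydrase, stood at 58.0 and 54.0 in T-47D DMSO and 103.9 and 128.2 with genistein, and at 2.26 and 2.32 in ECC-1 DMSO and 8.74 and 9.68 with genistein. It rose from a far lower level in ECC-1, and the interaction of -0.76 (-1.25 to -0.27) did not pass (limma adjusted p = 0.322), though it did with only the 8 DMSO and genistein libraries.

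PGR, the progesterone receptor gene, stood at 58.4 and 68.5 in T-47D DMSO and 116.8 and 164.6 with genistein, and at 0.0941 and 0.0478 in ECC-1 DMSO and 0.508 and 0.533 with genistein. It separated in both lines at levels far apart, and the pseudocount holds down the ECC-1 change of 0.84. The interaction was 0.29 (-0.27 to 0.84), and -0.74 at a pseudocount of 0.1. CISH, a feedback inhibitor of cytokine signalling, rose by 0.93 in T-47D and 1.36 in ECC-1, and RBM24, the gene of an RNA-binding protein, by 1.07 and 1.01. The RBM24 interaction of 0.06 turned to -1.18 at a pseudocount of 0.1, and neither passed the test.

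PPM1J, a protein phosphatase gene, rose by 0.87 in T-47D and 1.27 in ECC-1, with an interaction interval from -0.88 to 0.07. RASGRP1, an activator of Ras, rose by 0.86 and 0.89. SIAH2, a ubiquitin ligase gene, stood at 24.6 and 24.4 in T-47D DMSO and 43.6 and 49.1 with genistein, and at 13.0 and 13.1 in ECC-1 DMSO and 21.9 and 19.0 with genistein. The number of shared responses was sensitive to the libraries used. It fell when any 1 of the 8 was omitted and rose without both first estradiol libraries.

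**Figure D5:**
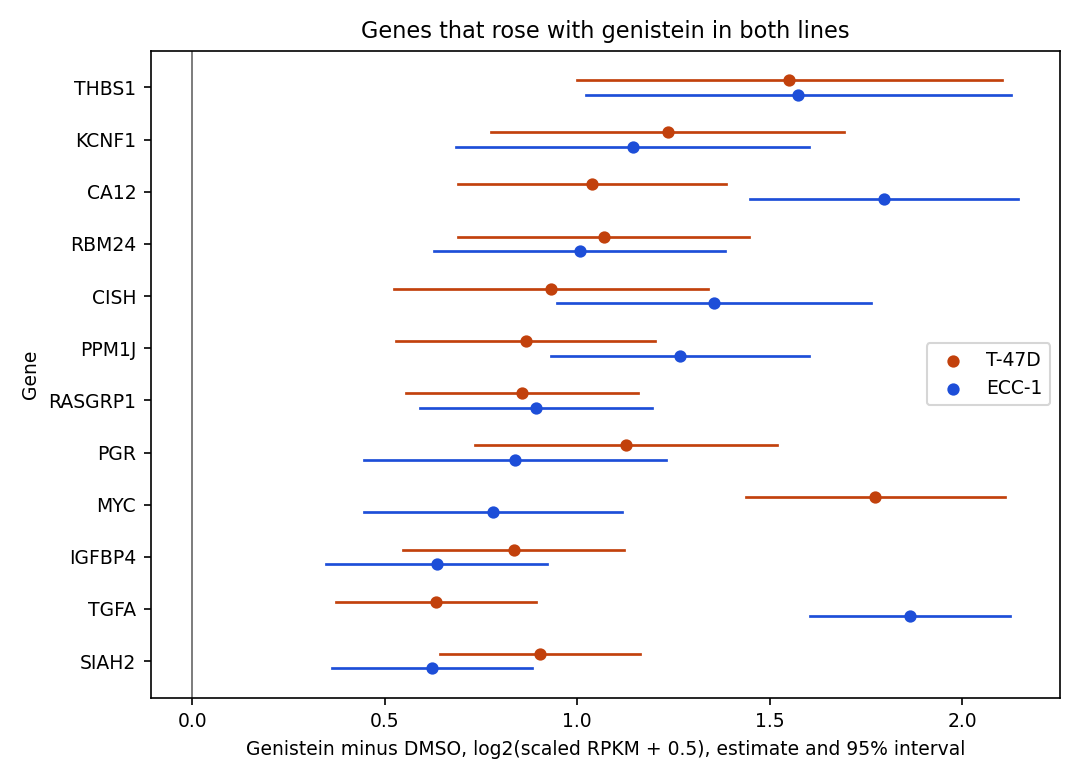
Log2 change with genistein and its 95% interval in T-47D and ECC-1 for the 12 genes that rose in both lines. Intervals of the lines overlap for most genes, while those of MYC, CA12 and TGFA do not.

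The genes raised in one line were also read in the other, as a description, since they were chosen for passing in one. Of the 108 raised in T-47D 50.9% were expressed in ECC-1, and of the 112 raised in ECC-1 68.8% were expressed in T-47D, and genes near 0 can show little change on this scale. The 108 genes raised in T-47D had a median change of 1.13 there and 0.09 in ECC-1, with 65.7% rising in sign, and 32 of them (29.6%) had a called interaction. The 112 raised in ECC-1 had a median of 1.08 there and 0.11 in T-47D, with 68.8% rising in sign, and 45 (40.2%) had a called interaction. TGFA, whose interaction was negative, is counted in both sets. The rest include genes that passed in both lines. For those that passed in one line only, the changes were not shown to differ between the lines. Over all tested genes 60.8% had the same sign in both lines, and the correlation of the changes across genes, which are not independent replicates, was 0.245 (Pearson) and 0.295 (Spearman).

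The 22 genes lowered in ECC-1 had a median change of -0.71 there and -0.17 in T-47D. None of them passed the test in T-47D, 18 of 22 had the same sign there, and PPARGC1A was the 1 gene among them with a called interaction.

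Estradiol and BPA values of some of the same genes are set beside these. Such values share the DMSO libraries and come at 10 nM and 100 nM. CXCL12 changed in T-47D by 3.51 with genistein, 3.88 with estradiol and 1.09 with BPA. The BPA value did not pass the test (limma adjusted p = 1.00). KRT13 changed in T-47D by 1.48 with genistein, 2.32 with estradiol and 0.16 with BPA.

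In ECC-1, DHRS3 changed by 3.80 with genistein, 3.91 with estradiol and 2.74 with BPA. DEPDC6 changed there by 2.26, 2.41 and 2.12, and TGFA by 1.86, 1.99 and 1.46. The ECC-1 changes with BPA passed the test for DHRS3 (limma adjusted p = 0.00115), DEPDC6 (2.25e-06) and TGFA (3.40e-05). In T-47D, DEPDC6 rose with estradiol by 0.67 (limma adjusted p = 0.0137), against 0.09 with genistein. TGFA rose there by 0.96 with estradiol and 0.63 with genistein, and stood at 0.01 with BPA.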

How the data were processed

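Polyadenylated RNA was sequenced after transposase-made, non-directional libraries, so overlapping and antisense genes cannot be told apart. RPKM values of 32062 RefSeq transcripts were deposited by the authors in 1 table per library, and per the submitters' processing notes Bowtie and hg19 were used. Versions, the counting rule and the treatment of multiply mapped reads are not given in the sources used here. Low RPKM values rise in steps of 1 read, and the depth was taken where most of them came out whole. Of the values under 10 reads, 61.9 to 63.8% were whole to within 0.1 read at that depth. Chance would give 20% at a depth fixed beforehand, which is not a like comparison with a chosen best share. A 2 kb transcript at 1 RPKM then rests on 36.2 to 58.8 reads.

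Of 21453 symbols, 5983 had several rows and are represented by their most abundant transcript. Libraries were scaled by the median ratio over 7547 genes with at least 5 RPKM in each (factors 0.938 to 1.054). Genes reaching 1 RPKM in 2 or more libraries, 13827 in all, were tested as log2(scaled RPKM + 0.5) in limma 3.58.1 (R 4.3.3), with 8 group means over all 16 libraries, eBayes with trend (8 residual and 6.9 prior degrees of freedom) and Benjamini-Hochberg adjustment per contrast. The median 95% interval reached 0.47 to either side for interactions and 0.33 for changes within a line. The steps were tested on simulated data.

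Named genes were, among called interactions whose mean over the 8 libraries reached 1 scaled RPKM, the 10 largest in each direction and the 6 largest expressed in both lines, then up to 6 genes called in opposite directions, the 6 called in both lines with the largest smaller change, a panel of 10 genes, and up to 3 called members, or else the 1 with the smallest p, of each list. Others were named after their values were seen. The rule, the lists and the panel were chosen with earlier results of these data known. Alternatives covered scaling, pseudocount, filters, the libraries fitted, weights, the replicate block, trend, transcript choice and leaving out libraries.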

Additional observations from a re-analysis of the deposited data

Results flagged for a closer look

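The difference between the lines itself passed the limma test for 33 genes with a higher change in T-47D and 48 with a higher change in ECC-1, and this difference by line is what set them out for a closer look. Among the named genes, the higher T-47D changes were those of CXCL12 (interaction 3.51), OLFM1 (1.88), NPY1R (1.87), KCNH1 (1.84), SUSD3 (1.83), FGD3 (1.75), FMN1 (1.74), KCNK5 (1.72), SEMA6A (1.71), KRT13 (1.59) and PPARGC1A (1.07). The higher ECC-1 changes were those of TGFA (-1.23), ESPNP (-1.96), SLCO2A1 (-2.06), NRTN (-2.14), DEPDC6 (-2.18), ANO1 (-2.24), G0S2 (-2.29), MMP17 (-2.62), ALPP (-2.85), ALPPL2 (-3.13) and DHRS3 (-4.23).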

How the results depend on the processing

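Counts below are of called interactions, then genes changed in T-47D, in ECC-1 and in both lines the same way, then interaction genes changed in a single line, which were 81, 111, 134, 12 and 76 as reported. They were 48, 55, 83, 9 and 44 where the mean had to reach 5 RPKM, 31, 44, 64, 8 and 27 with at least 1 scaled RPKM in each of the 8 libraries and no pseudocount, 130, 196, 250, 31 and 117 with 8 libraries in the fit, 145, 264, 415, 44 and 134 with 12, 205, 206, 841, 38 and 182 with array weights, and 145, 266, 415, 46 and 133 without both first estradiol libraries. With 1 library left out the ranges were 46 to 80, 46 to 99, 59 to 127, 2 to 9 and 46 to 78, where the lone sample of the group is assumed to vary like the others. Other scalings and pseudocounts, no filter, no trend and mean transcripts stayed within 1.5 times in count. The genes called changed more in 2 of these settings. Of the 81 interaction genes, 57 were among the 74 called with no filter and 61 among the 63 called at a pseudocount of 0.1. The other settings named here kept 79 to 81 of them. The filters test fewer genes, and the cause of the other shifts was not tested. The positive share of called interactions was 40.7%, against 25.8% without pseudocount and 50.7% with array weights.

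With the replicate block the 5 counts were 107, 134, 147, 14 and 100, and 50.5% of the called interactions were positive. Among the named genes the block gave a call to TFF1 (limma adjusted p = 0.0175) and PDZK1 (0.0494) and changed no other call. Deviations of same-numbered DMSO and genistein libraries had a correlation of 0.41 for T-47D and -0.12 for ECC-1. No label says that a number marks a shared batch or day, so the libraries were treated as unpaired, and whether those of T-47D were paired is not known.

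Of the 22 named genes with a called interaction, 17 kept the call in all alternatives run in which they were tested, and none reversed. SUSD3 and PPARGC1A also lost it at a pseudocount of 0.1 and with no filter, SUSD3 with quantile scaling too, and G0S2 at 0.1 and with no filter. FGD3 lost it with no filter and without the second T-47D DMSO, second T-47D genistein, second ECC-1 DMSO or first ECC-1 genistein library. PGR's interaction was -0.74 at a pseudocount of 0.1, with no call, and that of RBM24 -1.18. PDZK1 was also called at a pseudocount of 1 and with array weights. At the depths here, transcripts well under 1 RPKM rest on few reads, and differences of such genes were not detectable with precision.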

Other observations

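Among the called interaction genes outside the naming rule, picked here after their values were seen, the following had a higher change in T-47D. CADM1, a cell adhesion molecule gene, stood at 19.9 and 17.7 scaled RPKM in T-47D DMSO and 48.4 and 57.3 with genistein, and at or below 0.0293 in ECC-1. B4GALT1, a galactosyltransferase gene expressed in both lines, stood at 45.6 and 42.4 in T-47D DMSO and 93.2 and 126.4 with genistein, and at 32.1 and 34.1 in ECC-1 DMSO and 29.7 and 30.8 with genistein, with no overlap in either line and an interaction of 1.42 (limma adjusted p = 0.00528). SGK3, a serine kinase gene, had an interaction of 1.55, RUNX1, a transcription factor gene, 1.11, and PTGES, a prostaglandin E synthase gene, 1.31.

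The following, picked in the same way, had a higher change in ECC-1. PLAT, the tissue plasminogen activator gene, stood at 1.53 and 1.24 in ECC-1 DMSO and 7.42 and 6.46 with genistein, against 0.110 to 0.289 in T-47D. CA2, a cytosolic carbonic anhydrase gene, stood at 16.4 and 17.9 in ECC-1 DMSO and 44.0 and 48.0 with genistein, against at most 0.0351 in T-47D. PIM1, a serine kinase gene, had an interaction of -1.63, and IL4R, an interleukin receptor gene, one of -1.51. IL4R stood at 13.8 and 14 in T-47D DMSO and 9.66 and 9.80 with genistein, and at 3.22 and 3.39 in ECC-1 DMSO and 7.55 and 6.87 with genistein, the lines thus coming closer, though the T-47D change of -0.49 did not pass the test (limma adjusted p = 0.187).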
